A study of Mus musculus with 8 samples.

Results

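The peroxisome proliferator-activated receptors (PPARs) and the genes read as their output were measured in mouse liver, as mRNA and as ribosome-protected fragments (RPFs). The 9 genes were chosen by name. They comprise the receptors Ppara, Ppard and Pparg, the coactivators Ppargc1a and Ppargc1b, and the target genes Fgf21, Pdk4, Angptl4 and Vnn1. All 9 were found by symbol in every library, among 24079 symbols present in both assays. The livers came from male mice of the inbred strain C57BL/6 that were kept from week 8 of age on a high-fat diet, in which fat supplied 45% of the energy. In the HF group the mice drank water without betaine, and in the HB group the water held 2% (w/v) betaine. Livers were taken at week 25, and the feeding state at that time was not stated. Each assay had 2 libraries per group, called HF1, HF2, HB1 and HB2. The mice sequenced were those nearest the average weight of their group of 6, whereas the labels describe pooled preparations, so the p-values measure the spread between libraries, which may be technical. Mice on a standard diet were not analysed here, so each difference describes betaine on top of the high-fat diet.

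PPARs are nuclear receptors that bind fatty acids and their derivatives. Each pairs with a retinoid X receptor (RXR) on a direct repeat of the half-site AGGTCA with 1 base between the copies, and the PGC-1 coactivators Ppargc1a and Ppargc1b dock on such pairs to switch on transcription. In liver, PPAR alpha (Ppara) drives fatty acid oxidation and ketone body production during fasting, PPAR gamma (Pparg) is the receptor of fat storage in adipocytes and is known to rise in fatty livers, and PPAR delta (Ppard) is expressed in most tissues. Fgf21 encodes a liver hormone of the fasting response. Pdk4 encodes a kinase that shuts off pyruvate dehydrogenase and so spares glucose. Angptl4 encodes a secreted inhibitor of lipoprotein lipase. Vnn1 encodes vanin-1, an enzyme anchored to the cell surface that splits pantetheine into pantothenic acid and cysteamine.

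The genome positions are those of GENCODE M21 on GRCm38, the build the authors mapped to as mm10. All are protein-coding genes: Ppara at chr15:85734983-85802819 (plus strand), Ppard at chr17:28232700-28301474 (plus), Pparg at chr6:115360951-115490399 (plus) and Ppargc1a at chr5:51454250-51567726 (minus). The targets lie at chr7:45613886-45615490 (Fgf21, minus), chr6:5483351-5496309 (Pdk4, minus), chr17:33773750-33781830 (Angptl4, minus) and chr10:23894688-23905343 (Vnn1, plus). Gene lengths behind the RPKM were equal in both assays for Ppard, Fgf21, Pdk4, Angptl4 and Vnn1. They differed for Ppara (7445 and 7207 bases in RNA-seq and Ribo-seq), Pparg (2127 and 1776), Ppargc1a (6464 and 6495) and Ppargc1b (3656 and 10328), so the TE levels of these 4 genes depend on those lengths, whereas their HB minus HF differences do not.

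Promoter windows of 300 bases, 250 before to 50 after each start, were taken from RefSeq (GRCm38.p6) for the 6 members with an entry, 8 windows in all. The stretches nearest to the receptor's own motif are shown because the receptors and targets are linked through it. The direct repeat of AGGTCA with any 1 base between its copies was searched on both strands, and 0 windows held it with up to 3 mismatches in its 12 fixed bases, against 24.6% of 32851 windows genome-wide. With 2 mismatches the genome-wide share was 3.86%, and with 0 it was 0.0396%. The closest stretch of Ppara (chr15:85735537-85735549, plus strand), Pdk4 (chr6:5496422-5496434, minus) and Fgf21 (chr7:45615561-45615573, minus) matched 8 of the 12 bases, and the matching bases are in capitals. The half-site AGGTCA, held by 16.3% of all windows, occurred in 2 of the 3 windows of Pparg, at chr6:115361116-115361121 and chr6:115362340-115362345, and is in capitals there (plus strand). All are given with flanking bases, 5′ to 3′ on the sense strand.
Pparg, bases -28 to -23 from a start: cgccgcctcAGGTCAgagtcgccc
Pparg, bases -9 to -4 from another start: gacgcgaggAGGTCAagaaggggc
Ppara, closest repeat, bases -239 to -227: acgctacGGTCccAcGaCAggggtg
Pdk4, closest repeat, bases -156 to -144: gggaggAGccCAaAGtTCtttctct
Fgf21, closest repeat, bases -83 to -71: ccaagtgtGTCAaAtaTCAcgcgtc
A match of letters is no binding site, and its lack says only that these letters are not in the window.

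The unit was RPKM, the reads of a gene per kilobase of its length, scaled to a fixed library size. Library totals recovered from the RPKM steps ran from 11661207 to 22543471 reads in RNA-seq, and both HB libraries were the deeper. In Ribo-seq they were 387980 (HF1), 1056546 (HF2), 257086 (HB1) and 141890 (HB2) reads, a 7.45-fold range in which both HB libraries were the shallower. A gene of 1 kb with 3 reads, the floor used here, reached 0.133 to 0.257 RPKM in RNA-seq and 2.84 to 21.1 RPKM in Ribo-seq. The libraries were liver in character, with 6 hepatocyte markers (Alb, Apoa1, Ttr, Apob, Cyp2e1, Serpina1a) summing to 44722 to 56709 RPKM of mRNA. The 6 adipocyte markers summed to 27.7 to 40.4 RPKM in the HF and 31.9 to 41.4 RPKM in the HB libraries. In bulk tissue, fewer cells of a type and less RNA per cell cannot be told apart.

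Differences are given on the log2(RPKM + 1) scale as HB minus HF with their standard error (SE), from limma with Benjamini-Hochberg adjustment over all tested genes. The call rules were those of the study, a log2 difference beyond 1, with an unadjusted limit on p of 0.001 in mRNA and of 0.05 in RPF. For translation efficiency (TE), the RPF RPKM divided by the mRNA RPKM, the rule was a log2 difference beyond 2 and an unadjusted limit of 0.05. The sources used here do not say which RNA-seq and Ribo-seq libraries share a mouse. Deviations of same-numbered libraries from their group mean had a correlation across genes of -0.00239 in HF and -0.0774 in HB, so a TE printed per library rests on the number alone. The median of all tested genes was not 0, and stood at -0.19 for mRNA, -0.43 for RPF and -0.35 for TE. When the log2 values of every library were shifted to a common median, these medians became 0.08, -0.1 and -0.03, so the position of a gene relative to the median gene is given for the main results.

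PPAR alpha was by far the most abundant of the 3 receptors in these livers. Its mRNA stood at 44.4 and 50.6 RPKM in HF1 and HF2 and at 35.1 and 36.9 RPKM in HB1 and HB2. Both HB libraries lay below both HF libraries, and the difference of -0.39 (SE 0.25) did not pass the test (limma adjusted p = 0.262). Its footprints showed the same order, with 119.1 and 107.3 RPKM in HF and 71.2 and 78.2 RPKM in HB. They rested on 333, 817, 132 and 80 reads, the most of any of the 9 genes. The RPF difference of -0.59 (SE 0.27) did not pass either (limma adjusted p = 0.543), and relative to the median gene it was -0.16, while under the common sum it was -1.46 and met the rule of the study. Over the summed reads, the HB to HF ratio was 0.667, with a 95% exact counting interval of 0.574 to 0.773, an interval that covers counting error only and not the spread between libraries. The TE of Ppara was 2.68 and 2.12 in HF and 2.03 and 2.12 in HB, a log2 difference of -0.20 (SE 0.47) with a limma adjusted p = 0.878.

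Ppard mRNA was lower with betaine. It stood at 8.34 and 6.15 RPKM in HF and at 2.08 and 3.75 RPKM in HB, on 151 to 313 reads per library. The groups did not overlap, and the HF mean was 2.14-fold the HB mean on the fitted scale. The log2 difference was -1.10 (SE 0.29), or -0.91 relative to the median gene. With a limma adjusted p = 0.0238, Ppard missed the unadjusted limit of the study but passed the same fold limit with an adjusted p under 0.05. Without HB2 the difference was -1.41 and would have met the rule of the study. The call under the adjusted rule was lost without HB1 (-0.78), without HF1 (-0.90), under the common median (-0.82) and without a filter on low values. The call under the adjusted rule was 1 of the 9 genes, against 12.7% of all tested genes that were lower and 5.01% that were higher under that rule. The footprints of Ppard numbered 2, 3, 0 and 2 reads in HF1, HF2, HB1 and HB2, none above the floor of 3 reads, so no difference in its translation was detectable at this depth.

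Pparg, the receptor with half-sites at 2 of its starts, was the only one of the 9 genes with more mRNA in both HB libraries than in both HF libraries. Its mRNA stood at 6.21 and 4.29 RPKM in HF and at 11.7 and 6.68 RPKM in HB. HB1 was far above HB2, which lay close to HF1. The log2 difference of 0.68 (SE 0.31) did not pass the test (limma adjusted p = 0.131), and was 0.86 relative to the median gene. Without HB1 the difference was 0.31, and without HB2 it was 1.04. Footprints of Pparg were sparse, with 6, 17, 6 and 1 reads, and RPF values of 8.71 and 9.06 RPKM in HF and 13.1 and 3.97 RPKM in HB overlapped. The read ratio of 1.1 had a counting interval of 0.399 to 2.65, which covers both a loss and a gain.

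Because every library is scaled by its own total, the ratio of one receptor to another within a library is free of that scaling. Ppara mRNA was 7.15 and 11.8 times that of Pparg in HF1 and HF2, and 3 and 5.52 times in HB1 and HB2. The HB livers therefore held less Ppara mRNA per Pparg mRNA in both libraries. Against Ppard the shift ran the other way, from 5.32 and 8.22 in HF to 16.9 and 9.85 in HB. None of these ratios was tested. In the order of mRNA levels in HF, Ppard (7.25 ± 1.55 RPKM, SD, n = 2) and Pparg (5.25 ± 1.35) overlapped across libraries, although Ppard was the higher within each of them. In HB, Pparg (9.18 ± 3.53) stood above Ppard (2.91 ± 1.18) with no overlap.

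Of the coactivators, neither was called. Ppargc1a (PGC-1 alpha) mRNA was low, with 3.01 and 2.00 RPKM in HF and 1.89 and 1.40 RPKM in HB. Both HB libraries were the lower, although HF2 and HB1 nearly met. The log2 difference was -0.40 (SE 0.26, limma adjusted p = 0.271). Its relative Ppargc1b (PGC-1 beta) was scarcer still, with 1.57 and 1.64 RPKM in HF and 1.29 and 0.847 RPKM in HB. Here too the HB libraries were the lower, with a log2 difference of -0.34 (SE 0.24, limma adjusted p = 0.300). Footprints of Ppargc1a were 18, 16, 2 and 4 reads and those of Ppargc1b were 10, 56, 6 and 7 reads. In RPKM both genes overlapped between the groups, with RPF log2 differences of -0.60 (SE 0.83) for Ppargc1a and -0.09 (SE 0.70) for Ppargc1b. The counting interval of the read ratio ran from 0.219 to 1.54 for Ppargc1a and from 0.361 to 1.31 for Ppargc1b.

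**Figure D1:**
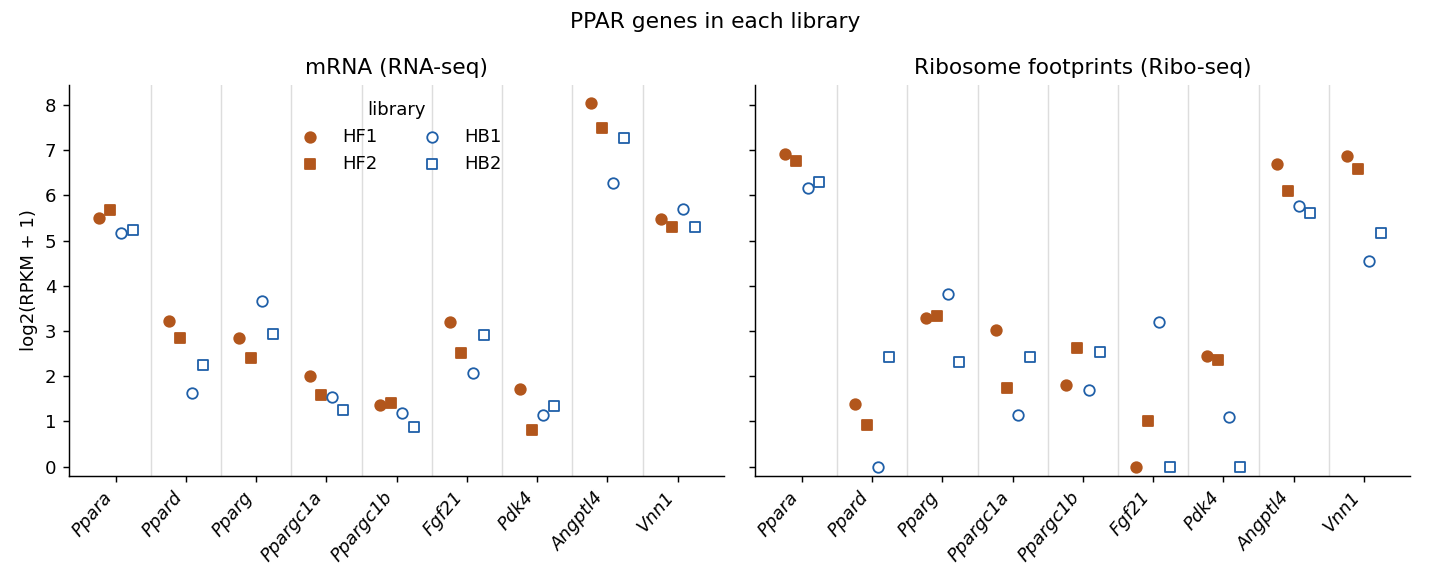
The 9 PPAR genes in each library, with log2(RPKM + 1) of mRNA in the left panel and of ribosome footprints in the right panel. Filled symbols are HF1 and HF2 and open symbols are HB1 and HB2. Vnn1 mRNA overlaps between the groups whereas its footprints are apart, and Angptl4 mRNA lies lowest in HB1.

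Vnn1 differed in footprints and not in mRNA by the rules of the study. Its mRNA did not separate the groups, with 43.7 and 38.6 RPKM in HF and 51.2 and 38.4 RPKM in HB. The mRNA log2 difference was 0.11 (SE 0.26, limma adjusted p = 0.783). Its footprints stood at 116.3 and 95.2 RPKM in HF and at 22.5 and 35.0 RPKM in HB, on 109, 243, 14 and 12 reads. The lowest HF library was thus well above the highest HB library. RPF of Vnn1 fell by 1.87 on the log2 scale (SE 0.35), or by 1.44 relative to the median gene, and was called lower under the rule of the study (log2 difference beyond 1 and unadjusted p under 0.05). Its limma adjusted p = 0.493 did not pass, and 0.108 was the smallest adjusted p of any of the 11190 genes tested in RPF. Over the summed reads the HB to HF ratio was 0.267, with a counting interval of 0.172 to 0.399, so the counting error alone leaves the ratio well under 1.

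The TE of Vnn1 was 2.66 and 2.47 in HF and 0.441 and 0.911 in HB. It stood just short of the fold limit, with a log2 difference of -1.98 (SE 0.58, limma adjusted p = 0.346). Crossing the numbers or fitting the interaction model cannot change that difference. It met the rule with a pseudocount of 0.1 (-2.01) and under the common sum (-2.79). The RPF call held in 11 of the 13 alternative settings, and was lost without HF1 (log2 difference -1.72) and with the adjusted p. With a library left out the TE difference ran from -2.48 without HB2, past the fold limit, to -1.47 without HB1. A comparison inside each library used the neighbouring family member Vnn3, whose footprints were 44.1 and 40.8 RPKM in HF and 36.5 and 38.9 RPKM in HB. The RPF of Vnn1 was 2.64 and 2.34 times that of Vnn3 in HF, and 0.617 and 0.9 times in HB. For mRNA the ratio of Vnn1 to Vnn3 was 0.545 and 0.57 in HF and 0.988 and 0.712 in HB, the opposite order. Relative to Ppara, RPF of Vnn1 went from 0.976 and 0.887 in HF to 0.316 and 0.447 in HB. Vnn3 footprints numbered 31, 78, 17 and 10 reads, which limits these ratios.

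Pdk4 was called lower in footprints as well, but on very few reads. Its mRNA was 2.31 and 0.759 RPKM in HF and 1.21 and 1.52 RPKM in HB, so that the HF libraries lay on either side of the HB libraries. The mRNA log2 difference was -0.03 (SE 0.31, limma adjusted p = 0.949). Footprints were 4.48 and 4.11 RPKM in HF and 1.13 and 0 RPKM in HB, that is 6 and 15 reads against 1 and 0. The fitted RPF difference was -1.86 (SE 0.71, limma adjusted p = 0.493). With 21 reads in HF and 1 in HB, the read ratio was 0.172 with a counting interval of 0.00417 to 1.07, which reaches 1. The call was lost in 9 of 12 alternative settings, among them without HF1 (-1.81), HF2 (-1.91) or HB2 (-1.32), while TE met its rule without HB1 (-2.47) and was -1.19 without HB2. Its TE of 1.94 and 5.42 in HF and 0.933 and 0 in HB did not meet the fold limit (log2 difference -1.83, SE 0.67, limma adjusted p = 0.378).

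Angptl4 was the most abundant of the 9 mRNAs in both groups. It stood at 262.9 and 178.2 RPKM in HF and at 76.4 and 153.9 RPKM in HB. The groups did not overlap, with HB1 far below the other 3 libraries and HB2 near HF2. The log2 difference was -0.99 (SE 0.36), -0.80 relative to the median gene, and did not pass the rules (limma adjusted p = 0.068). Without HB2 the difference was -1.49 and would have been called (unadjusted limit of 0.001), and without HB1 it was -0.49. Footprints followed with 102.9 and 67.6 RPKM in HF and 53.1 and 48.1 RPKM in HB, on 76, 136, 26 and 13 reads. The RPF difference of -0.71 (SE 0.33), or -0.28 relative to the median gene, did not pass (limma adjusted p = 0.555). It was -0.41 without HF1, whereas it met the rule of the study without HF2 (-1.01) and under the common sum (-1.57). The read ratio of 0.666 had a counting interval of 0.461 to 0.941. The TE of 0.392 and 0.38 in HF and 0.696 and 0.313 in HB overlapped.

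Fgf21 mRNA did not differ beyond the spread between libraries. It was 8.15 and 4.73 RPKM in HF and 3.19 and 6.48 RPKM in HB, on 53 to 111 reads, and the groups overlapped. The log2 difference was -0.37 (SE 0.34, limma adjusted p = 0.439). Its footprints were 0, 1, 2 and 0 reads, all at or under the floor, so its translation could not be compared. In this short mRNA of 947 bases, 3 reads correspond to 3 RPKM in the deepest Ribo-seq library and to 22.3 RPKM in the shallowest.

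Counted over the 9 genes with limma, 0 were called in mRNA, where 2.30% of 10687 tested genes were called higher and 6.56% lower. By unadjusted p under 0.05 there were 2 (Ppard and Angptl4), against 40.5% of all tested genes, and limma-voom on recovered reads called 0. In RPF, Vnn1 and Pdk4 were called lower among the 7 genes with a library above the floor. Of all tested genes, 7.86% were called lower and 1.58% higher, shares taken without that floor. Pdk4 passed the floor through HF alone, with 1 and 0 reads in HB. Among genes with at least 100 RPF reads, which include Vnn1 but not Pdk4, 4.47% were called lower. Footprints of 1 of 6 Kupffer cell markers and 2 of 4 endothelial markers were called lower as well. Summed RPF was 111.5 and 97.3 RPKM in HF and 100.8 and 55.3 RPKM in HB for the endothelial list and 128.6 and 99.1 against 116.2 and 72.6 RPKM for the Kupffer list, and both overlapped. The calls of the endothelial markers Pecam1 and Stab2 were each lost in 7 of 13 alternatives, and that of the Kupffer cell marker Cd68 in 2 of 12. Both HB libraries lay below both HF libraries for 4 of the 6 Kupffer markers, against 33.2% of all tested genes. Their RPF median was -0.77 against -0.43. The 5 stellate cell markers summed to 37.3 and 22.9 RPKM in HF and 21.7 and 10.2 RPKM in HB, with no overlap. Their part in the differences was not tested. In TE, 0 of the 7 genes were called, against 1.49% of genes called higher and 4.60% called lower, and 2 (Pdk4 and Vnn1) had an unadjusted p under 0.05, against 12.2% of all tested genes. These splits of all genes depended on scaling, since the common median gave 540 higher and 291 lower calls in mRNA in place of 246 and 701. In RPF it gave 349 higher and 421 lower in place of 177 and 879, and in TE 259 and 253 in place of 141 and 435.

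Both HB libraries lay below both HF libraries for 5 of the 9 genes in mRNA and above them for 1, against 43.3% and 24.8% of all tested genes. In RPF, 4 genes (Ppara, Pdk4, Angptl4 and Vnn1) lay below and 0 above, against 33.2% and 9.07% of tested genes. In TE, 4 lay below and 1 above, against 31.7% and 14.0%, and the 1 above was Ppard, whose footprints were at the floor. Ppard lay above only on the log2 scale with 1 added, since its plain TE of 0.192 and 0.143 in HF and 0 and 1.17 in HB overlapped. These shares are near the background and are no result about the 9 genes. The median log2 difference of the members was -0.37 in mRNA, -0.60 in RPF and -0.21 in TE, the last 2 over 7 genes.

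**Figure D2:**
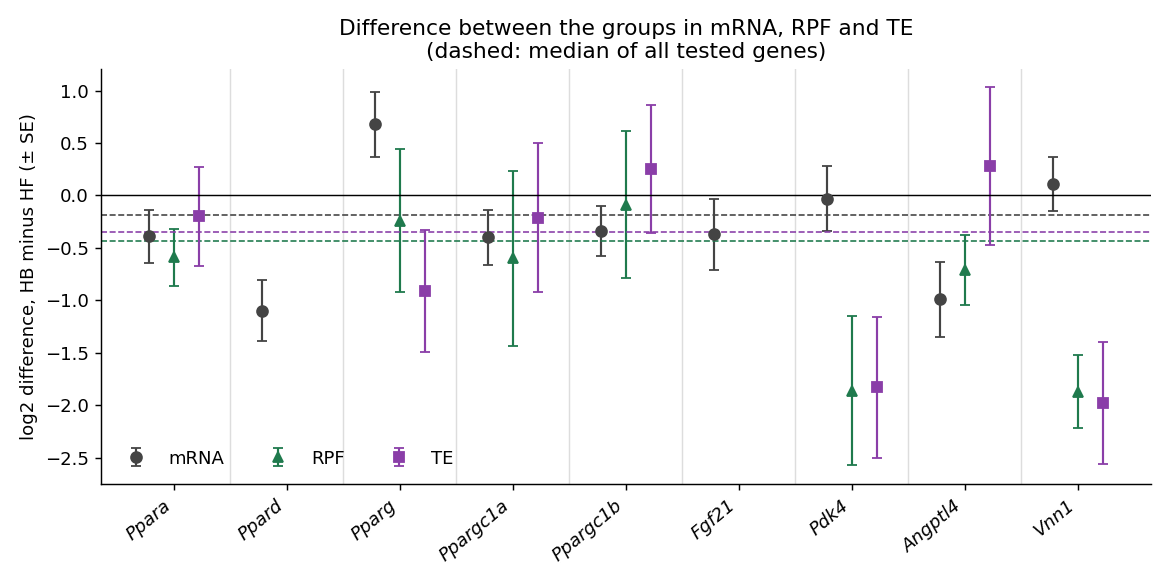
Log2 difference (HB minus HF) of each of the 9 genes in mRNA, RPF and TE, with bars of 1 SE from limma and n = 2 libraries per group. Dashed lines mark the median of all tested genes in each measure. Vnn1 stands at 0.11 in mRNA and at -1.87 in RPF. Ppard and Fgf21 have no RPF or TE point because their footprints were at the floor.

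**Figure D3:**
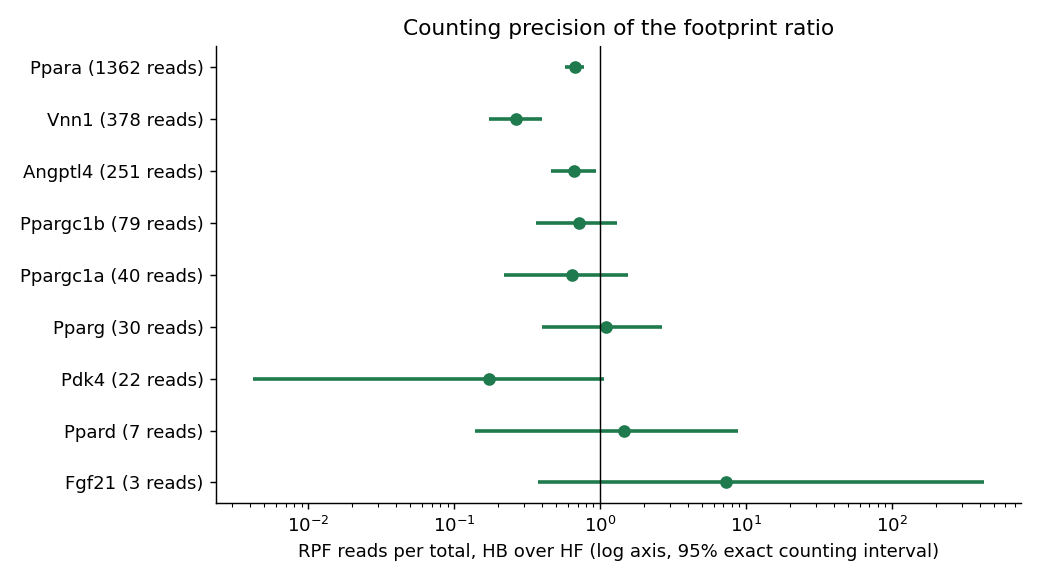
Ratio of footprint reads per library total, HB over HF, on a log axis, with 95% exact counting intervals and the summed reads of each gene in brackets. The intervals of Ppara, Vnn1 and Angptl4 lie below 1. The remaining 6 intervals include 1, and that of Fgf21, on 3 reads, spans 0.377 to 427.2. A ratio of 1 is not the level of the median tested gene, whose RPF log2 difference was -0.43. Relative to that gene the log2 difference was -0.16 for Ppara, -0.28 for Angptl4 and -1.44 for Vnn1.

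The plot of read ratios shows how unevenly the 9 genes were covered. Ppara had 1362 footprint reads over the 4 libraries, Vnn1 had 378 and Angptl4 had 251, whereas the remaining members had 79 or fewer. The median gene tested in RPF had 39 reads.

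A list of 51 hepatic PPAR alpha targets, most of them enzymes and carriers of fatty acid oxidation, was read beside the signature targets. Of 49 tested members, 6 were called higher in mRNA (Plin2, Ehhadh, Acaa2, Retsat, Gpd1 and Hadha) and 1 lower (Txnip), against 2.30% and 6.56% of all tested genes. Under the adjusted rule 12 were higher and 3 lower, against 5.01% and 12.7%. The list median was 0.32 against -0.19 for all genes, and both HB libraries lay above both HF libraries for 28 members and below for 8, against 24.8% and 43.3% of all tested genes. Across 14 alternatives the list median stayed 0.32 to 0.65 above that of all genes. Between 1 and 13 members were called higher, fewest without a filter on low values, with 3 without HF2 and 11 without HB2.

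Plin2, which coats lipid droplets, rose from 55.4 and 67.6 to 374.0 and 242.2 RPKM (log2 difference 2.28, SE 0.29, limma adjusted p = 0.00523). Ehhadh, the bifunctional enzyme of peroxisomal fat oxidation, rose from 31.8 and 33.7 to 152.6 and 92.9 RPKM (1.83, SE 0.29, limma adjusted p = 0.00526). Retsat, which saturates retinol, rose from 104.7 and 110.1 to 261.1 and 301.7 RPKM (1.38, SE 0.26, limma adjusted p = 0.00749). In each of these the groups were far apart. Txnip, an inhibitor of thioredoxin, fell from 54.1 and 45.1 to 19.6 and 21.3 RPKM (log2 difference -1.23, SE 0.25, limma adjusted p = 0.00928), a call that was not made under the common median or without either HF library. Those of Plin2 and Ehhadh held with any library left out, and that of Retsat was lost without HF1 or HF2. Cpt1a, the gate of fatty acid entry into mitochondria, was not called. Its mRNA was 76.7 and 77.6 RPKM in HF and 96.7 and 91 RPKM in HB. The fatty acid hydroxylase Cyp4a14 overlapped at 1166 and 234.6 RPKM in HF and 245.6 and 250.8 RPKM in HB, with HF1 alone high.

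Footprints of the same targets gave few calls. Of 49 tested in RPF, Ucp2 was called higher and Gpd1 lower, against 1.58% and 7.86% of all tested genes. The Gpd1 call was lost in 8 of 13 alternatives. Lower calls numbered 31 under the common sum, 7 without HB1 or without HB2, 6 with voom and 0 without HF1 or HF2. Both HB libraries lay below both HF libraries for 30 members and above for 2, against 33.2% and 9.07%, and the list median was -0.49 against -0.43 for all genes. Plin2 footprints were 154.3 and 201.1 RPKM in HF and 195.8 and 190.5 RPKM in HB, a log2 difference of 0.13 (SE 0.27, limma adjusted p = 0.867). TE of the list had a median of -0.97 against -0.35, with 4 members called lower (Plin2, Gpd1, Ehhadh and Acot2) and 1 higher (Ucp2), against 4.60% and 1.49% of all tested genes. On the log2 scale a TE difference is the RPF difference less the mRNA difference, so it is not independent of the mRNA result. Plin2, Gpd1 and Ehhadh were among the targets called higher in mRNA. TE of Plin2 went from 2.78 and 2.98 to 0.524 and 0.786 (log2 difference -2.15, SE 0.52, limma adjusted p = 0.334), a call kept without HB2 and lost under the common median and without HF1, HF2 or HB1. Of the other TE calls, that of Acot2 was lost in 10 of 14 alternatives, that of Gpd1 in 5 (without HF1, HF2 or HB2 among them), that of Ucp2 in 4 (without HF2 or HB1 and under the common sum among them) and that of Ehhadh in 3 (without HF2 and under the common median among them). Both HB libraries were below both HF libraries in TE for 31 of 49 members, against 31.7% of all genes. The list median of TE stayed below that of all genes by 0.28 to 0.97 across the 14 alternatives, while 0 to 17 members were called lower. Acot2 belongs to a cluster of near-identical genes, so its reads are uncertain.

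Ucp2, an uncoupling protein family member of the inner mitochondrial membrane, was the target called higher in RPF and TE. Its mRNA was 29.9 and 27.1 RPKM in HF and 23.1 and 34.8 RPKM in HB, an overlap. Its footprints were 44.2 and 32.4 RPKM in HF and 209.8 and 147.6 RPKM in HB, on 27, 54, 85 and 33 reads. The RPF log2 difference was 2.19 (SE 0.34, limma adjusted p = 0.493), the reverse of the pattern of Vnn1. Under the common sum it was 1.33 and was not called, whereas it was called with any library left out (1.94 to 2.44).

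**Figure D4:**
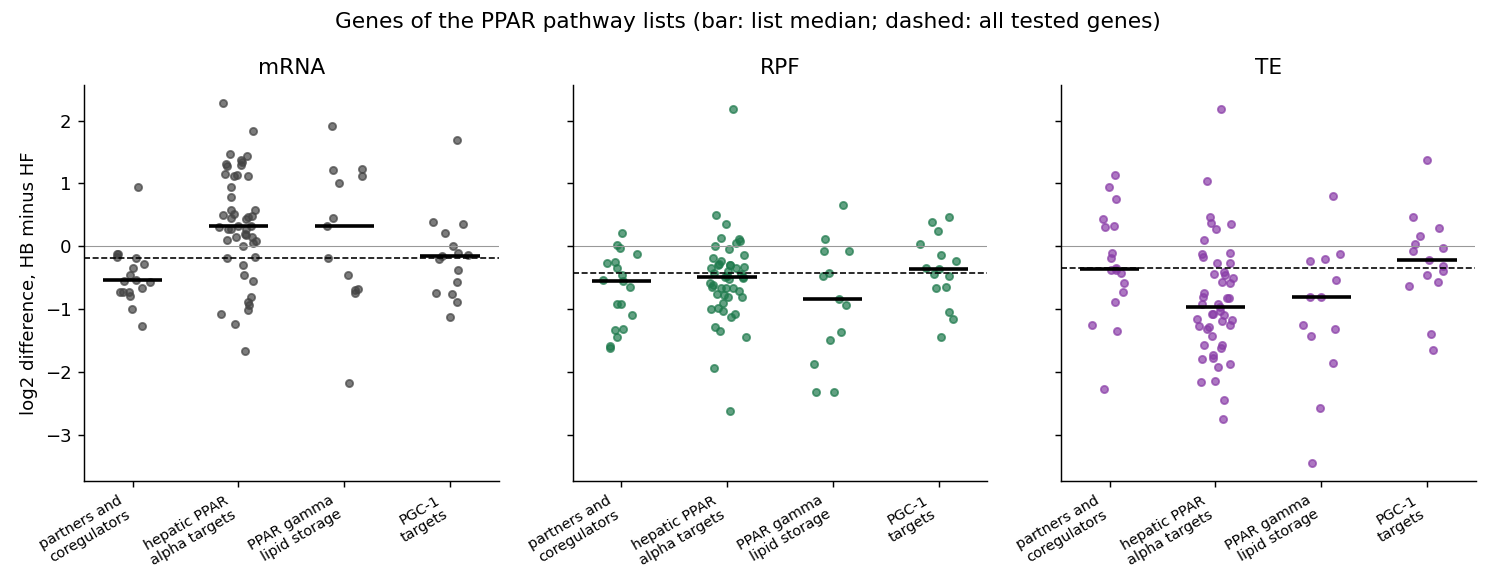
Log2 difference (HB minus HF) of each tested gene of 4 PPAR pathway lists in mRNA, RPF and TE. Each point is a gene, the thick bar is the list median and the dashed line the median of all tested genes. The hepatic PPAR alpha targets lie above the dashed line in mRNA (median 0.32 against -0.19) and below it in TE (-0.97 against -0.35). TE is RPF less mRNA on the log2 scale, so these positions are not independent.

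Among 19 partners and coregulators of the receptors, 18 were tested in mRNA. Both HB libraries lay below both HF libraries for 11 of them and above for 1, against 43.3% and 24.8% of all tested genes. The list median was -0.54 against -0.19 for all genes. Sirt1, a deacetylase that acts on PGC-1 alpha, was the member called, against 6.56% of all tested genes called lower. Its mRNA fell from 7.98 and 6.89 to 2.69 and 2.35 RPKM (log2 difference -1.26, SE 0.25, limma adjusted p = 0.00850), a call that was not made under the common median (-0.99) or without HF1, HF2 or HB2 (-1.35 to -1.17 with a library left out). Its footprint difference was -0.13 on 2, 35, 3 and 2 reads, too few to compare, and the sign of that difference turned under the common median. Rxra, the main RXR partner in liver, was 71.8 and 83.6 RPKM in HF and 65.9 and 76.5 RPKM in HB and overlapped. In RPF, 3 members were called lower, the corepressor Ncor1, its deacetylase Hdac3 and Rxrg, against 7.86% of all tested genes. The Ncor1 call was lost under the common median and without HF1, HF2 or HB1 (-1.43 to -0.75 with a library left out). Hdac3 footprints were 29.6 and 28.8 RPKM in HF and 9.7 and 10.5 RPKM in HB, on 23, 61, 5 and 3 reads (log2 difference -1.44, SE 0.37, limma adjusted p = 0.493), and the call was lost without HF1 or HF2. Rxrg had 1, 2, 0 and 0 reads, so its call rests on libraries at or under the floor. In TE, limma called 0 of 18 members and gave 0 an unadjusted p under 0.05, against 12.2% of all tested genes, and the interaction model called 1.

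Of 15 genes of PPAR gamma-linked lipid storage, 13 were tested, and in mRNA 0 were called by the rule of the study with limma or voom (7 had an unadjusted p under 0.05, against 40.5% of all tested genes), whereas 4 were higher and 1 lower under the adjusted rule, against 5.01% and 12.7% of all tested genes. By the rule of the study the common median called 4 higher and 0 lower (540 and 291 over all genes). The replicate block called 4 higher and 1 lower (498 and 1229 over all genes). Cidea, a lipid droplet protein, was 9.72 and 5.81 RPKM in HF and 18.5 and 52.1 RPKM in HB (log2 difference 1.91, SE 0.43, limma adjusted p = 0.0132). Its difference was 2.64 without HB1 and 1.19 without HB2. Plin4, another droplet coat protein, was 99.1 and 55 RPKM in HF and 5.8 and 39 RPKM in HB (log2 difference -2.18, SE 0.66, limma adjusted p = 0.0359), and this call was lost under the common median (-1.91) and without HB1 (-0.90). Storage genes thus moved in both directions, and the list median of 0.33 turned to -0.01 without HB1 and to -0.04 without HB2. In RPF, Plin4, Plin5 and Mogat1 were called lower, against 7.86% of all tested genes, Mogat1 on 1, 1, 0 and 0 reads. The calls of Plin4 and Plin5 were each lost in 7 of 13 alternatives, among them the common median and without HF1, HF2 or HB1, and voom called 1 member of the list. TE calls were Mogat1 and Fitm2, both lower, against 4.60% of all tested genes, a share taken without the floor. Every Ribo-seq library of Mogat1 was under the floor, so its RPF and TE calls say nothing of its translation. TE of Fitm2, a protein of droplet formation, went from 9.44 and 7.85 to 1.56 and 0.962 (log2 difference -2.57, SE 0.49, limma adjusted p = 0.328).

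A list of 15 PGC-1 targets gave a median of -0.16 in mRNA, close to that of all genes. Atp5b, the catalytic subunit of ATP synthase, was the member called higher, against 2.30% of all tested genes, from 152.6 and 180.0 to 673.7 and 429.9 RPKM (log2 difference 1.69, SE 0.30, limma adjusted p = 0.00666). Esrra, the estrogen-related receptor through which PGC-1 alpha acts, was lower under the adjusted rule, from 65.4 and 62.7 to 25.8 and 32.5 RPKM (log2 difference -1.12, SE 0.25, limma adjusted p = 0.0131), a call lost under the common median (-0.85) and without HF1 (-1.09) or HB1 (-0.96). Footprints of G6pc, the last enzyme of glucose output, fell from 176.9 and 223.7 to 105.0 and 74.9 RPKM (log2 difference -1.16, SE 0.31, limma adjusted p = 0.493). Foxo1, a transcription factor of gluconeogenesis, was also called lower in RPF, at -1.45, which makes 2 of 15 against 7.86% of all tested genes. Neither RPF call was made under the common median or without HF1 or HF2, nor that of G6pc without HB2. In TE, 0 of 15 were called with limma or with the interaction model, where 1.49% of all tested genes were called higher and 4.60% lower, and 2 had an unadjusted p under 0.05, against 12.2%.

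Of 8 tested relatives of the signature targets, 1 was called lower in mRNA, against 6.56% of all tested genes. This was a relative of Angptl4. Angptl8, a secreted protein that takes part in the control of lipoprotein lipase, was called lower, from 153.7 and 142.6 to 39.5 and 39 RPKM (log2 difference -1.89, SE 0.25, limma adjusted p = 0.00523), and the call held in all 14 alternatives run. Angptl8 and Angptl4 both had lower mRNA in both HB libraries, as did 43.3% of all tested genes. Both kept a negative difference under the common median and the common sum. Angptl8 had 3, 5, 5 and 0 footprint reads, too few to compare. Angptl6 mRNA overlapped, with a difference of -0.07. Its differences of -2.02 in RPF and -1.94 in TE were not called, but were under the common sum and without HB2.

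The remaining relatives were not called in mRNA with limma. Pdk1 mRNA was 9.25 and 9.43 RPKM in HF and 21.4 and 12.6 RPKM in HB, Pdk2 mRNA overlapped, and Pdk3 reached at most 0.2 RPKM. Fgf1 mRNA was 40.6 and 39.9 RPKM in HF and 27.5 and 27.8 RPKM in HB (log2 difference -0.53, SE 0.24, limma adjusted p = 0.131), and Fgf15 was listed at 0. Ppm1k, a mitochondrial phosphatase, had a difference of -0.63 in mRNA (adjusted p = 0.0825, limma), and voom called its RPF lower. FGF21 acts through FGF receptors and a co-receptor. The co-receptor Klb was 3.07 and 1.6 RPKM in HF and 4.5 and 2.44 RPKM in HB, an overlap, and Fgfr1, Fgfr2 and Fgfr4 were not called in mRNA. Fgfr3 fell from 25.1 and 20.2 to 9.86 and 7.92 RPKM (log2 difference -1.26, SE 0.26, limma adjusted p = 0.00960), a call not made under the common median (-0.98) or without HF1, HF2 or HB2. Fgfr2 footprints, on 21, 44, 4 and 2 reads, were called lower at -1.41 (limma adjusted p = 0.497), a call lost in 8 of 13 alternatives, among them the common median, the replicate block, voom and without HF1 or HF2. Fgfr3 and Fgfr2 were each 1 of 5 genes called lower, against 6.56% of all tested genes in mRNA and 7.86% in RPF.

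Genes that follow feeding moved with some of these values. HB1 stood apart from HB2 for Fasn mRNA (212.4 against 32.4 RPKM, with 15.2 and 21.5 in HF) and for Acly mRNA (148.8 against 16.5 RPKM, with 10.9 and 25.5 in HF). HB1 was also the library with the highest Pparg and the lowest Angptl4 and Ppard mRNA. The fasting gene Igfbp1 was 108.3 and 15.5 RPKM in HF and 37.4 and 36.1 RPKM in HB, and HF1, its highest library, also held the highest Cyp4a14, Fgf21, Pdk4, Angptl4 and Ppard mRNA. Of 5 fasting genes tested in mRNA and 6 feeding genes, 0 were called by the rule of the study with limma or voom, and 3 had an unadjusted p under 0.05, against 40.5% of all tested genes. The mRNA median was 1.56 for the feeding genes and -0.46 for the fasting genes, against -0.19 for all genes. Both HB libraries lay above both HF libraries for 2 of the 6 feeding genes and below them for 1 of the 5 fasting genes, against 24.8% and 43.3%. Under the adjusted rule Sds was lower (-1.15) and Fasn higher (2.14), against 12.7% and 5.01%. The call of Sds was lost under the common median (-0.87) and without HF1 (-0.99), and that of Fasn without HB1 (0.80). The part of feeding state in the differences was not tested.

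**Figure D5:**
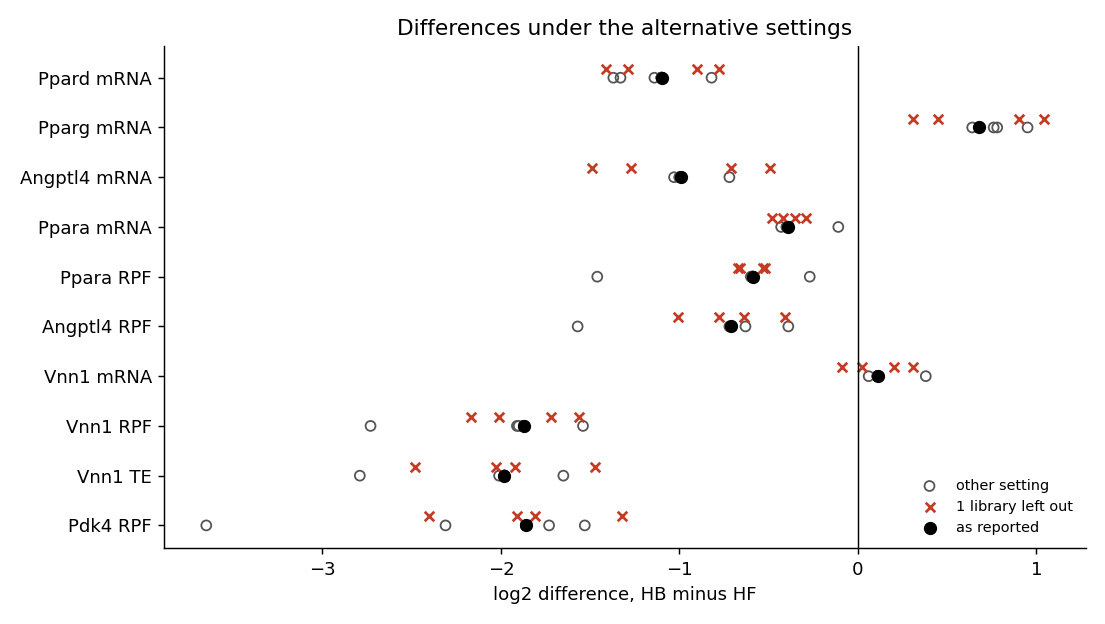
Log2 difference (HB minus HF) of the main results under each alternative setting. Filled circles are the reported values, open circles other settings and crosses the fits with 1 library left out. Vnn1 RPF stays between -2.73 and -1.54, whereas Pdk4 RPF runs from -3.65 to -1.32 and Vnn1 mRNA lies on both sides of 0.

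For each of the 9 genes, the gene with the nearest profile over the 8 libraries was found among 9455 genes, by Euclidean distance on log2(RPKM + 1) centred within each assay. Lamc1 was nearest to Vnn1 (distance 0.278), with mRNA of 1.46, 1.2, 1.48 and 1.15 RPKM and footprints of 6.43, 4.72, 0.51 and 0.925 RPKM in HF1, HF2, HB1 and HB2. Iqgap1 was nearest to Ppara (0.206), Acin1 to Ppard (0.353), Slc44a1 to Pparg (0.328) and Notch1 to Angptl4 (0.306). The nearest to Ppargc1a was Zfp507 (0.378), to Ppargc1b Rnf19a (0.163), to Fgf21 Tmem101 (0.645) and to Pdk4 Erc1 (0.563). The larger distances belong to genes with few footprint reads.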

How the data were processed

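RNA-seq (polyadenylated RNA) and Ribo-seq libraries of mouse liver were analysed from RPKM values that the authors deposited per gene and library, after mapping to mm10 with FANSe2. Ribosomes were held with cycloheximide and digested with RNase I, and whether footprints were counted over the coding sequence only is not given in the sources used here. edgeR, used by the authors, needs counts and was replaced. Of 24539 RNA-seq and 25033 Ribo-seq entries, 4 RNA-seq entries sharing a symbol were left out. Whole reads were recovered from the RPKM steps for 99.32% (RNA-seq) and 99.99% (Ribo-seq) of values above 0, and served for floors (3 reads), counting intervals and limma-voom.

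Genes whose RPKM averaged at least 1 in an assay (10687 mRNA, 11190 RPF, 9455 TE) entered two-sided fits of log2(RPKM + 1) on the group alone in limma 3.58.1 (R 4.3.3, eBayes with trend). TE was log2((RPF + 1)/(mRNA + 1)) of libraries with the same group and number, while TE values printed per library are plain RPKM ratios. The fits were tested on simulated data. Counting intervals were computed with scipy 1.17.1.

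The 9 genes and the lists were chosen with earlier results of these data known. The genes named beside the 9 were, per list, up to 3 called in each direction and measure with the smallest p, members of the small lists of relatives and FGF21 receptors (1 not reported here), and the nearest profile gene. Cpt1a, Cyp4a14, Rxra, Cidea, Plin4 (mRNA), Esrra, Fasn, Acly, Igfbp1, Sds and the further called targets were named after their values were seen. Alternatives covered the pseudocount, the filter, 2 scalings, the replicate number as a block, the variance trend, each library left out, the call rule, voom, the pairing of assays and an interaction model. A block with crossed numbers was added after seeing the data.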

Additional observations from a re-analysis of the deposited data

How the results depend on the processing

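The 23 differences of the 9 genes were recomputed under 12 to 14 alternatives each, 306 values in all, of which 24 changed sign and 13 differences never did. The filter, the blocks, the variance trend, the call rule, the crossed numbers and the interaction model cannot change a difference. Only the pseudocount, the scalings, voom and a library left out could turn a sign, so many of the 306 values were fixed in advance. In mRNA the count of called members was 1 with the replicate block (Ppard), 1 with the adjusted p and 0 to 2 with a library left out (2 without HB2). In RPF it was 1 under the common median, the pseudocount of 0.1, the mean RPKM limit of 5, no filter, the replicate block and voom, 4 under the common sum, 0 with the adjusted p, and 0 to 2 with a library left out (0 without HF1, 1 without HB2). In TE it was 1 under the pseudocount of 0.1, 2 under the common sum, and 0 to 1 with a library left out (1 without HB1 or HB2). The cause of these shifts was not tested. Signs turned under the common median for RPF of Pparg (0.09) and Ppargc1b (0.23), TE of Ppara (0.12) and Ppargc1a (0.12), mRNA of Pdk4 (0.24) and the PGC-1 list medians of mRNA (0.11) and TE (0.11). They turned under the common sum for TE of Ppargc1b (-0.42) and Angptl4 (-0.54), under voom for RPF of Pparg (0.05) and mRNA of Pdk4 (0.02), and under the pseudocount of 0.1 for mRNA of Pdk4 (0.02). With a library left out, RPF ranged from -0.99 to 0.52 for Pparg, -1.25 to 0.04 for Ppargc1a and -0.51 to 0.32 for Ppargc1b. TE ranged from -0.98 to 0.57 for Ppargc1a, -0.32 to 0.82 for Ppargc1b and -0.29 to 0.85 for Angptl4. Differences in mRNA ranged from -0.79 to 0.05 for Fgf21, -0.49 to 0.42 for Pdk4 and -0.09 to 0.31 for Vnn1. Medians of the lipid storage list ranged from -0.04 to 0.41 in mRNA, -1.48 to 0.03 in RPF and -1.91 to 0.17 in TE, and that of the PGC-1 list from -0.47 to 0.00 in mRNA.

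Over all genes, the replicate block called 498 higher and 1229 lower in mRNA against 246 and 701 without it, the adjusted rule 535 and 1353, and no filter 34 and 38. The common sum called 41 higher and 2659 lower in RPF and 42 and 1332 in TE, the adjusted rule 0 in either, and a mean RPKM of at least 5 gave 311 lower in RPF. Without HB1, 2609 genes were lower in RPF, and without HB2 524 were higher. Same-numbered libraries had a correlation of deviations of -0.104 across genes in RNA-seq and -0.0138 in Ribo-seq. These values show no pairing by number, but with 2 libraries per group they cannot exclude one. Blocks crossed in RNA-seq called 474 higher and 1303 lower, 1 of them again Ppard. Where a library was left out, the lone one was assumed to vary like the others. The shallow Ribo-seq libraries of HB limit every statement on footprints.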
